A study of Homo sapiens with 9 samples.

Results

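CXCL8, ICAM1 and IRF1 are 3 inflammatory genes with promoters that NF-kB is known to bind, described here in HT-29 cells given rosemary extract or carnosic acid. They were chosen by symbol in the array's annotation, which held 1 row for each, so all 3 of the 14884 named genes are covered by a single measurement. The choice rests on measured values: in an earlier look at these arrays they were the genes of a short list of NF-kB targets that passed the test in carnosic acid against untreated cells. Their values in that comparison are therefore a description and carry no test.

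HT-29 is an established line of human colon adenocarcinoma cells with an epithelial form, grown here in McCoy's 5A medium with fetal calf serum. The groups were cells given rosemary extract, a plant extract rich in polyphenols, cells given carnosic acid, a phenolic diterpene that occurs in rosemary, and untreated cells, which received the vehicle. Each group had 3 arrays of total RNA taken at 24 h on Affymetrix whole-transcript gene arrays. Dose is not stated for either treatment in the labels, so differences between the treatments hold for the treatments as applied. All groups are the same single line, and the replicates are described as biological with no culture days named, so the p-values measure only the spread between these arrays. The values are RMA levels on a log2 scale, in which a step of 1 is a 2-fold change.

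NF-kB is a family of dimeric transcription factors that inhibitory IkB proteins hold in the cytoplasm. Signals from TNF, IL-1 or Toll-like receptors activate IkB kinase, which marks the inhibitors for breakdown, and the dimers then enter the nucleus and switch on chemokines, adhesion molecules and survival genes. CXCL8 is the chemokine interleukin-8, which attracts neutrophils and is made by many colon cancer cells. ICAM1 is the surface adhesion molecule that leukocyte integrins grip. IRF1 is a transcription factor, induced by interferon-gamma as well as by NF-kB, that switches on interferon-responsive and antigen presentation genes.

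The 250 bases before the start of each gene are shown because they hold the short sequences through which these pathways are known to act. They come from RefSeq on build GRCh38.p14, in which all 3 genes had an entry, and capitals mark matches to the NF-kB, AP-1 and GAS motifs spelled out after them, or in IRF1 to the NF-kB consensus, given by name alone. CXCL8 lies on the plus strand at chr4:73740319-73740568, ICAM1 on the plus strand at chr19:10270870-10271119 and IRF1 on the minus strand at chr5:132490774-132491023.
CXCL8: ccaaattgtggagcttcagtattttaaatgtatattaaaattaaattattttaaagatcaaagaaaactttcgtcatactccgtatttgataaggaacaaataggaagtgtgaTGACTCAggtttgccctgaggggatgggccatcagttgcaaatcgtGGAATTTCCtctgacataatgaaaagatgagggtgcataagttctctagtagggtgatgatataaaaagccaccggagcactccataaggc
ICAM1: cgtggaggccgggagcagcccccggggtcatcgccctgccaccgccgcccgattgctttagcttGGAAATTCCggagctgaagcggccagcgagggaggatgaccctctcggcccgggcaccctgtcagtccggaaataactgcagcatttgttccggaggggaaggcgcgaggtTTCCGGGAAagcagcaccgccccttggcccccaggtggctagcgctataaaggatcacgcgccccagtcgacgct
IRF1: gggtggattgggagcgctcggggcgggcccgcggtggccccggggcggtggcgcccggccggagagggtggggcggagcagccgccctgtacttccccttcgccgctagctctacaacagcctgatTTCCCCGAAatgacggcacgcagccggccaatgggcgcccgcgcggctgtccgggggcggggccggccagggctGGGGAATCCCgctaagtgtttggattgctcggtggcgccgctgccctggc

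Each of the 3 windows held an NF-kB-like match, counted on both strands. The 9 letters GGAATTTCC stood in CXCL8 from base -91 to -83 before the start and, read on the opposite strand, in ICAM1 from -186 to -178. These letters were picked after the promoters were read, and they occur in 145 of 35116 RefSeq promoter windows of the same length (0.413%). IRF1 had instead a match to the 10-base NF-kB consensus from -50 to -41, a looser pattern that 9.96% of the windows hold. The AP-1 letters TGANTCA were in CXCL8 (-137 to -131) and in 6.57% of all windows, and the letters TTCNNNGAA of a GAS element, an interferon-gamma response sequence, were in ICAM1 (-75 to -67) and IRF1 (-124 to -116) and likewise in 6.57% of all windows. A TATA box, searched as TATAAA on the gene's strand, was in CXCL8 and ICAM1 and in 6.8% of windows, with no match in this window of IRF1. No NF-kB match overlapped an AP-1 or GAS match. These matches describe the letters and say nothing of which factor was bound in these cells.

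CXCL8 was higher with both treatments than in untreated cells. Its levels were 7.14, 6.78 and 6.48 in rosemary extract arrays, 6.68, 6.39 and 6.45 in carnosic acid arrays, and 5.59, 5.72 and 5.83 in untreated arrays (log2). Every treated array lay above every untreated array, and the extract arrays were the most spread. Such a separation upward from untreated cells was seen in 25% of all genes with the extract and 19.7% with carnosic acid. The extract group averaged 6.80 ± 0.33 and the untreated group 5.71 ± 0.12 (SD, n = 3 each), a 2.13-fold rise (log2 change 1.09 ± 0.15, SE, limma adjusted p = 0.000122). This change ranked 241 from the highest of 11163 genes tested. The carnosic acid group averaged 6.51 ± 0.15 (SD, n = 3), which is 0.80 ± 0.15 (SE) above untreated cells, or 1.74-fold.

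ICAM1 was also higher with either treatment than in untreated cells. The extract arrays read 6.71, 6.45 and 6.71, the carnosic acid arrays 6.69, 6.52 and 6.44, and the untreated arrays 5.91, 5.95 and 6.26 (log2). Treated and untreated values did not overlap, although untreated replicate 3 came within 0.18 of the lowest carnosic acid array and 0.19 of the lowest extract array. Groups lay apart upward in 25% of all genes with the extract and 19.7% with carnosic acid. ICAM1 rose with the extract (6.62 ± 0.15 in extract cells and 6.04 ± 0.19 in untreated cells, SD, n = 3 each, log2 change 0.58 ± 0.12, SE, limma adjusted p = 0.00190). With carnosic acid the difference from untreated cells was 0.51 ± 0.12 (log2, SE), or 1.43-fold.

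IRF1 had a different pattern and was highest with carnosic acid. It read 7.38, 7.19 and 7.36 in extract arrays, 7.76, 7.55 and 7.65 in carnosic acid arrays, and 7.08, 7.17 and 7.39 in untreated arrays (log2). The carnosic acid arrays lay above all the others, and the extract arrays fell within the range of the untreated ones. The extract changed IRF1 by 0.096 ± 0.096 (log2, SE, limma adjusted p = 0.484), with a 95% interval from -0.11 to 0.31. The carnosic acid group averaged 7.65 ± 0.11 and the untreated group 7.22 ± 0.16 (SD, n = 3 each), a difference of 0.44 ± 0.096 (SE) or 1.35-fold.

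**Figure D1:**
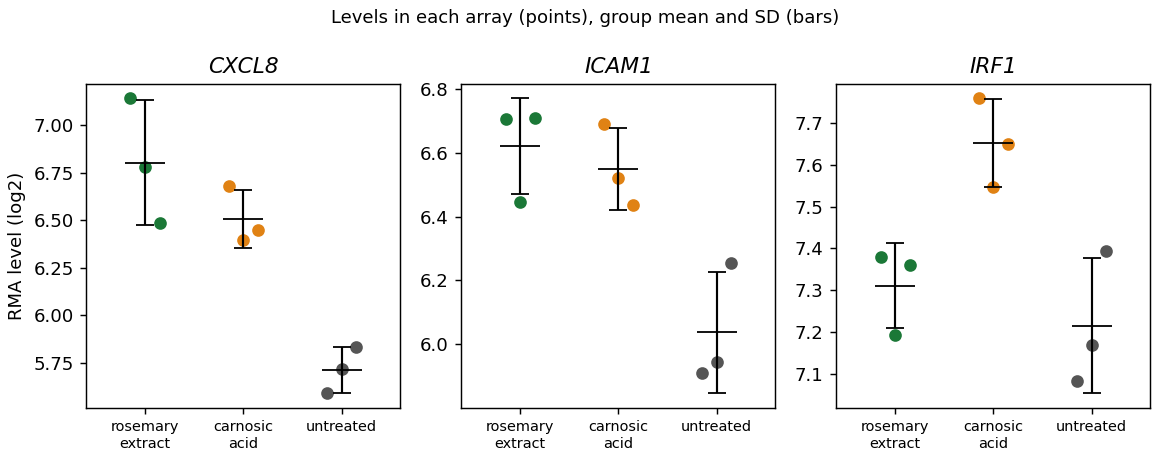
RMA levels (log2, vertical axis) of CXCL8, ICAM1 and IRF1 in the 3 arrays of each group, with group mean and SD as bars. The vertical scale differs between panels, and the untreated arrays lie below both treatments for CXCL8 and ICAM1 but overlap the extract arrays for IRF1.

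The extract therefore raised 2 of the 3 genes at an adjusted p under 0.05, where 21.8% of the 11163 genes tested rose. For carnosic acid all 3 passed by the way they were chosen, beside 12.9% of all genes called higher, and nothing is read from that count. All 3 carnosic acid groups lay wholly above their untreated groups, beside 19.7% of all genes. That too is tied to the way the genes were chosen, and nothing is read from it. With the extract CXCL8 and ICAM1 lay wholly above untreated cells, beside 25% of all genes. Both comparisons with untreated cells share the same untreated arrays, which also took part in the choice of the genes, so the extract comparison is not fully separate from that choice. The median change over all tested genes was -0.018 with the extract and -0.011 with carnosic acid (log2). All 3 genes lay above the dim limit of 4.50 in all 9 arrays, so none entered the test through a single group.

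The extract and carnosic acid were then set against each other to ask whether the genes differ between the treatments. IRF1 was lower with the extract than with carnosic acid by -0.34 ± 0.096 (log2 difference, SE, limma adjusted p = 0.0302), and the groups did not overlap. Of all genes tested, 9.07% were called lower and 8.24% higher with the extract than with carnosic acid, and groups lay apart downward in 15.6% and upward in 16.2%. The IRF1 call did not hold with extract replicate 1 (adjusted p = 0.0547) or 2 (0.133) or carnosic acid replicate 1 (0.107) or 3 (0.0801) left out, nor with every row tested (0.127), although the difference stayed between -0.39 and -0.28. Its carnosic acid arrays also took part in the choice of the gene. For ICAM1 the difference was 0.071 with a 95% interval from -0.19 to 0.33 (adjusted p = 0.768), and for CXCL8 0.29 with an interval from -0.034 to 0.62 (adjusted p = 0.236). Leaving out extract replicate 3, the lowest extract array for CXCL8, gave 0.45 and an adjusted p = 0.0428. These intervals do not show that CXCL8 and ICAM1 respond alike to the treatments.

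**Figure D2:**
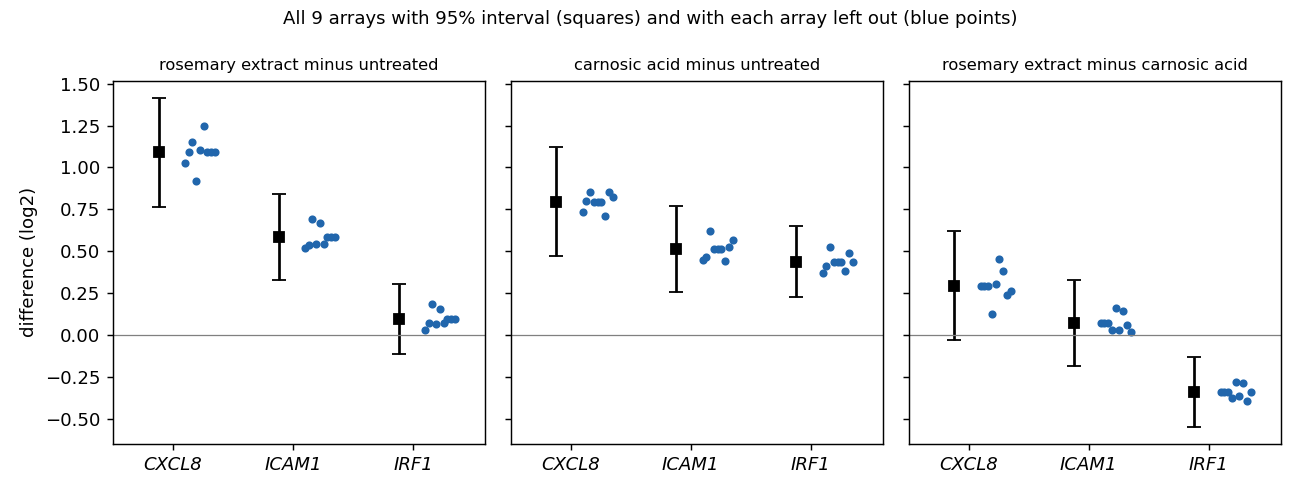
Log2 differences (vertical axis) for each gene in the 3 comparisons, from all 9 arrays with the 95% interval (squares) and with each array left out in turn (blue points). Every point of CXCL8 and ICAM1 lies above 0 with the extract against untreated cells, and those of IRF1 between extract and carnosic acid run from -0.39 to -0.28. Carnosic acid against untreated cells is the comparison that chose the genes, so its intervals are a description and no test.

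Among the NF-kB subunits, RELA, the p65 subunit that activates transcription, rose with both treatments. It read 9.49, 9.48 and 9.41 in extract arrays, 9.42, 9.54 and 9.37 in carnosic acid arrays, and 8.998, 8.95 and 8.79 in untreated arrays (log2). All treated arrays lay above all untreated ones, which held for 25% of all genes with the extract and 19.7% with carnosic acid. The changes were 0.55 ± 0.067 with the extract (log2, SE, limma adjusted p = 5.01e-05) and 0.53 ± 0.067 with carnosic acid (adjusted p = 0.000278).

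The other subunits moved less and not all one way. NFKB1, the precursor of p50, fell with the extract by 0.34 ± 0.078 (log2, SE, limma adjusted p = 0.00427) and did not pass with carnosic acid (-0.094, adjusted p = 0.446). NFKB2, the precursor of p52, rose by 0.37 with the extract (adjusted p = 0.00267) and stood at 0.18 with carnosic acid (adjusted p = 0.133). REL, the c-Rel subunit, rose by 0.33 with the extract, a call lost without extract replicate 2 (adjusted p = 0.0568). With carnosic acid REL rose by 0.28 (adjusted p = 0.0452), and that call was lost without any 1 of 7 arrays, all but untreated replicate 3 and extract replicate 3 (adjusted p from 0.0516 to 0.154). RELB did not pass in either comparison (0.18 and 0.050). Of the 5 subunits 3 were called higher and 1 lower with the extract, beside 21.8% and 16.3% of all genes, and 2 were called higher with carnosic acid, beside 12.9%, a count that fell to 1 when REL lost its call.

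Proteins that restrain or tune NF-kB were measured in part, with 6 of 12 listed genes named on the array and 5 tested. BCL3, an IkB-like cofactor of p50 and p52, rose by 0.35 with the extract (log2, limma adjusted p = 0.00279) and by 0.47 with carnosic acid (adjusted p = 0.00121). With the extract, TNIP1, a partner of the ubiquitin editor A20, rose by 0.23 and CYLD, a deubiquitinase that dampens the pathway, by 0.33. Both calls were lost without untreated replicate 2 or extract replicate 1 or 2, that of CYLD also without untreated replicate 3 (adjusted p from 0.0704 to 0.127). The extract raised 3 of 5, or 1 of 5 without any 1 of those first 3 arrays, and carnosic acid 1 of 5, beside 21.8% and 12.9% of all genes. The feedback inhibitors NFKBIA and TNFAIP3 had no named row here.

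Upstream of NF-kB, 3 of 15 tested receptors, adaptors and kinases rose with the extract and 1 fell, beside 21.8% and 16.3% of all genes, and the 4 calls became 2 without extract replicate 1 or 2. TLR4, the lipopolysaccharide receptor, fell by 0.44 with the extract (log2, limma adjusted p = 0.00819) and stood at 0.044 with carnosic acid. CHUK, the IKK-alpha kinase, rose by 0.28 with the extract, a call lost without extract replicate 1 or 2 (adjusted p = 0.0665 and 0.0555). TAB3, an adaptor of the kinase TAK1, rose by 0.83 with the extract and 0.55 with carnosic acid in its brighter row, while its dimmer row gave 0.36 and -0.021. It was the 1 gene of this list called with carnosic acid, where 2 were called without untreated replicate 1 or carnosic acid replicate 1 or 2, and it was not called there when its rows were averaged (adjusted p = 0.151). MYD88, the adaptor of Toll-like and IL-1 receptors, was lower with the extract than with carnosic acid by -0.35 (adjusted p = 0.0221). With extract replicate 2 or carnosic acid replicate 2 or 3 left out it was not called (adjusted p from 0.0628 to 0.105), and MYD88 did not pass against untreated cells in either comparison (-0.094 and 0.26).

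Most other chemokines and cytokines did not pass the test. Of 31 listed, 14 were tested, and 1 rose and 1 fell with the extract, while 1 rose with carnosic acid, beside 21.8%, 16.3% and 12.9% of all genes. The 2 calls with the extract became 5 with no filter on dim genes and 1 with a stricter filter, with a replicate block, or without untreated replicate 1 or extract replicate 2. The carnosic acid count was 2 with the block. CXCL2, a chemokine of the same neutrophil-attracting family, read 6.68, 6.49 and 6.48 in extract arrays, 6.49, 6.53 and 6.47 in carnosic acid arrays, and 6.49, 6.39 and 6.51 in untreated arrays (log2), so the 3 groups overlapped. TNF did not pass either (-0.024 with the extract and 0.056 with carnosic acid). CXCL3, CCL20 and CXCL10 lay below the dim limit and were not tested, and CXCL1 and IL6 had no named row here.

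The 1 cytokine that rose with both treatments was LIF, a member of the interleukin-6 family. Its levels were 8.08, 8.03 and 7.97 in extract arrays, 7.98, 7.92 and 7.99 in carnosic acid arrays, and 7.38, 7.17 and 7.32 in untreated arrays (log2). The treated arrays lay clear of the untreated ones by more than the range within any group. Whatever the gap, 25% of all genes lay wholly above untreated cells with the extract and 19.7% with carnosic acid. LIF rose 1.66-fold with the extract (limma adjusted p = 7.94e-06) and 1.59-fold with carnosic acid (adjusted p = 8.95e-05). CCL28, a mucosal chemokine, fell by 0.28 with the extract, a call lost without untreated replicate 1 or extract replicate 1 or 2 (adjusted p from 0.0699 to 0.103) and with a replicate block (0.0506).

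Further NF-kB targets went in both directions. Of 19 tested, 9 rose and 2 fell with the extract, and 8 rose and 1 fell with carnosic acid, against backgrounds of 21.8% and 16.3%, and of 12.9% and 6.12%. SDC4, a cell surface heparan sulfate proteoglycan, rose 1.53-fold and 1.61-fold. The survival genes BIRC2, an inhibitor of apoptosis that also ubiquitinates RIPK1 (1.53-fold and 1.24-fold), and BCL2L1, which encodes BCL-XL (1.33-fold and 1.22-fold), rose with both too. CD44, a hyaluronan receptor, fell by 0.999 with the extract and by 0.48 with carnosic acid (log2, limma adjusted p = 2.94e-06 and 0.00251).

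PTGS2, the inducible cyclooxygenase that makes prostaglandins in inflamed tissue, moved against CXCL8 and ICAM1 with the extract. It read 6.67, 6.30 and 6.47 in extract arrays, 7.41, 7.46 and 8.04 in carnosic acid arrays, and 7.48, 7.71 and 8.01 in untreated arrays (log2). The extract arrays lay below all the others, and carnosic acid and untreated arrays overlapped. Over all genes, extract arrays lay wholly below untreated arrays in 21.7% and wholly below carnosic acid arrays in 15.6%. PTGS2 fell by 1.25 ± 0.18 with the extract (log2, SE, limma adjusted p = 0.000157) and did not pass with carnosic acid (-0.095). The extract was lower than carnosic acid by -1.16 (adjusted p = 0.000851, 95% interval -1.55 to -0.77).

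LCN2, lipocalin 2, an iron-siderophore binding protein of innate defence, was higher with the extract than in either other group. It read 9.13, 9.28 and 9.27 in extract arrays, 8.14, 8.01 and 8.23 in carnosic acid arrays, and 8.13, 8.29 and 8.43 in untreated arrays (log2). It rose by 0.94 ± 0.087 with the extract (log2, SE, limma adjusted p = 5.68e-06), did not pass with carnosic acid (-0.16, adjusted p = 0.238), and differed between the treatments by 1.10 (adjusted p = 6.02e-06). PTGS2 was thus lower, and LCN2 higher, with the extract than with carnosic acid, and both calls held with each array left out. The lower IRF1 call was less firm, being lost without extract replicate 1 or 2 or carnosic acid replicate 1 or 3. It was also lost with every row tested, and the carnosic acid arrays took part in the choice of IRF1.

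**Figure D3:**
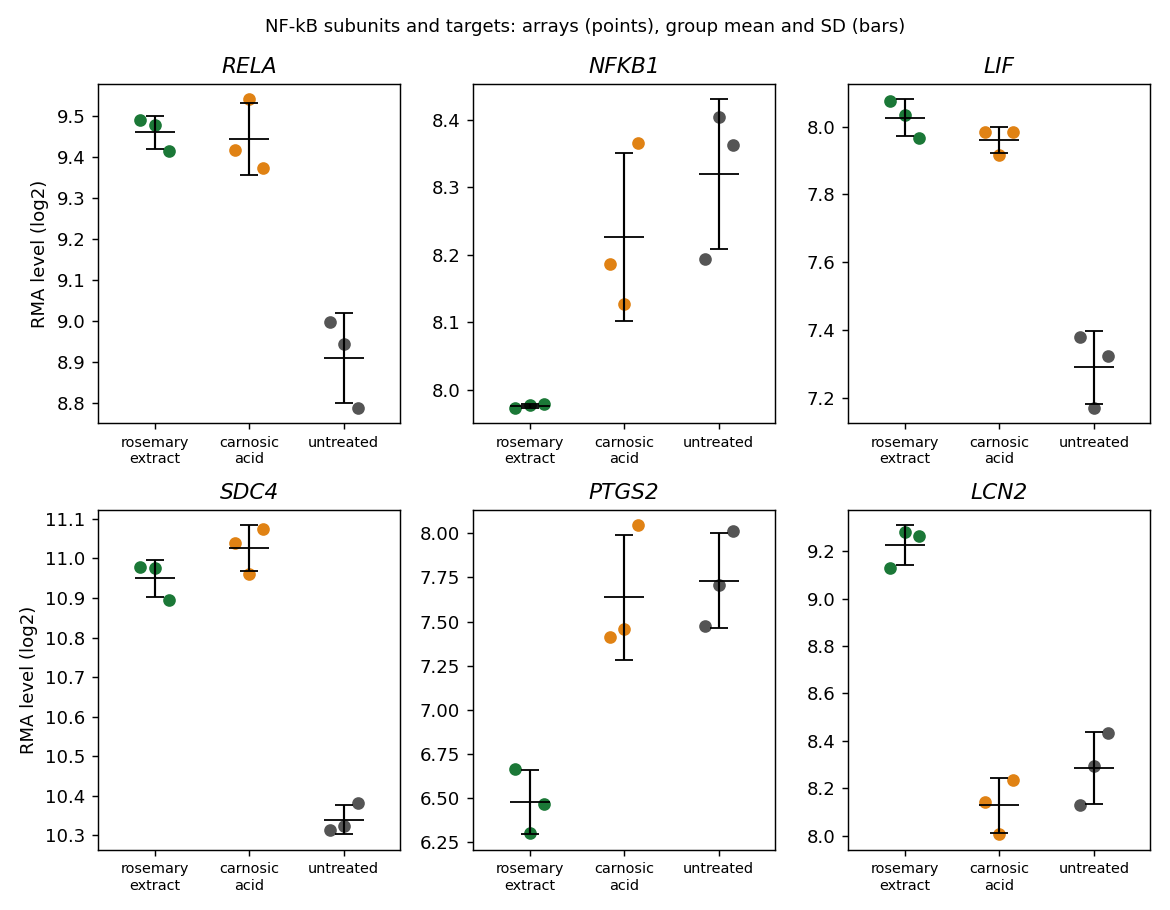
RMA levels (log2, vertical axis, scaled per panel) of 2 NF-kB subunits and 4 target genes in the 3 arrays of each group, with group mean and SD as bars. RELA, LIF and SDC4 are above untreated cells with both treatments, while NFKB1 and PTGS2 are low and LCN2 high in the extract arrays.

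Genes that act with the CXCL8 and ICAM1 proteins were measured for 8 of 15 listed, of which 6 were tested. Of these 2 were called higher and 1 lower with the extract, beside 21.8% and 16.3% of all genes. With carnosic acid 2 were called higher, beside 12.9%. MSN, moesin, which links ICAM1 to the actin cortex, rose by 0.64 with the extract and 0.47 with carnosic acid (log2, limma adjusted p = 1.26e-06 and 7.59e-05). ADAM17, a membrane protease that can shed ICAM1, rose by 0.94 and 0.51 (adjusted p = 1.75e-05 and 0.00436). ICAM3, a leukocyte relative of ICAM1, fell by 0.31 with the extract, a call lost without any 1 of 6 arrays (adjusted p from 0.0505 to 0.149). EZR and RDX, relatives of moesin on the same list, were not called in either comparison and are named after their values were seen. EZR averaged 11.39 with the extract, 11.45 with carnosic acid and 11.35 untreated, and RDX 6.41, 6.57 and 6.42 (log2). The CXCL8 receptors CXCR1 and CXCR2 lay below the dim limit in the mean over all arrays.

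Among genes of interferon signalling, which lies upstream of IRF1, some rose and others did not pass. Of 13 tested genes of interferon signalling, 5 rose with the extract and 4 with carnosic acid, beside 21.8% and 12.9% of all genes. The carnosic acid count was 2 when untreated replicate 2 or carnosic acid replicate 1 was dropped, and 1 when carnosic acid replicate 2 was. IFNGR2, a chain of the interferon-gamma receptor, rose by 0.73 with the extract and 0.62 with carnosic acid (log2, limma adjusted p = 1.52e-05 and 0.000227). JAK1, the kinase that receptor uses, rose by 0.76 with the extract and by 0.31 with carnosic acid, the second call being lost without carnosic acid replicate 1 or 2 (adjusted p = 0.0604 and 0.0501). JAK2 rose by 0.72 with the extract (adjusted p = 0.00369) and IRF7, another interferon regulatory factor, by 0.63 (adjusted p = 0.000137). IFNGR1, the other chain of that receptor, and the kinase TYK2 did not pass with the extract (-0.11 and 0.0023, adjusted p = 0.337 and 0.984), and are named after their values were seen. STAT3 rose by 0.22 with the extract (adjusted p = 0.00575).

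Of 17 tested targets of IRF1 and interferon, 4 rose and 3 fell with the extract, and 2 rose with carnosic acid. Over all genes 21.8% rose and 16.3% fell with the extract and 12.9% rose with carnosic acid, so the targets' counts lie near the background. The carnosic acid count became 1 with untreated replicate 1 dropped, and 0 if carnosic acid replicate 1 or 3, or untreated replicate 2, was dropped. CD274, the checkpoint ligand PD-L1, rose by 0.47 with each treatment (log2, limma adjusted p = 0.00845 with the extract and 0.0176 with carnosic acid). IFIT5, an interferon-induced RNA-binding protein, rose by 0.41 and 0.30. With carnosic acid, both lost the call when untreated replicate 2 or carnosic acid replicate 1 or 3 was left out, and that of IFIT5 also without untreated replicate 1, extract replicate 1 or carnosic acid replicate 2 (adjusted p from 0.0514 to 0.121). OASL, an antiviral protein of the 2-5A synthetase family, rose by 0.67 with the extract, while SP110, a nuclear body protein, and EIF2AK2, the RNA-activated kinase PKR, fell by 0.60 and 0.46. B2M, the light chain of MHC class I, did not pass in its brighter row (-0.014 and -0.084), though its dimmer row read -0.42 and -0.60. GBP1, TAP1 and PSMB9, well-known IRF1 targets, had no named row here.

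The AP-1 family, whose letters stood in the CXCL8 window, split by member. FOSL1, which encodes FRA-1, rose by 0.94 with the extract and 0.64 with carnosic acid (log2, limma adjusted p = 0.000303 and 0.00993). FOS fell by 0.82 with the extract (adjusted p = 4.63e-06), JUN by 0.47 with the extract and 0.53 with carnosic acid, and FOSB by 0.52 with the extract. With carnosic acid FOS fell by 0.27 (adjusted p = 0.0283), which did not pass when carnosic acid replicate 1 or 2 or untreated replicate 1 or 3 was dropped (adjusted p from 0.0859 to 0.0990). The dimmer row of FOS gave -1.46 and -0.99. FOSB stood at -0.035 with carnosic acid in its brighter row, while its dimmer row gave -0.72 with the extract and -0.35 with carnosic acid. JUNB rose by 0.36 with the extract (adjusted p = 0.00500), and ATF3 did not pass (-0.065 and 0.00077). Of the 8 tested, 3 rose and 3 fell with the extract, beside 21.8% and 16.3% of all genes, and 1 rose and 2 fell with carnosic acid, beside 12.9% and 6.12%.

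**Figure D4:**
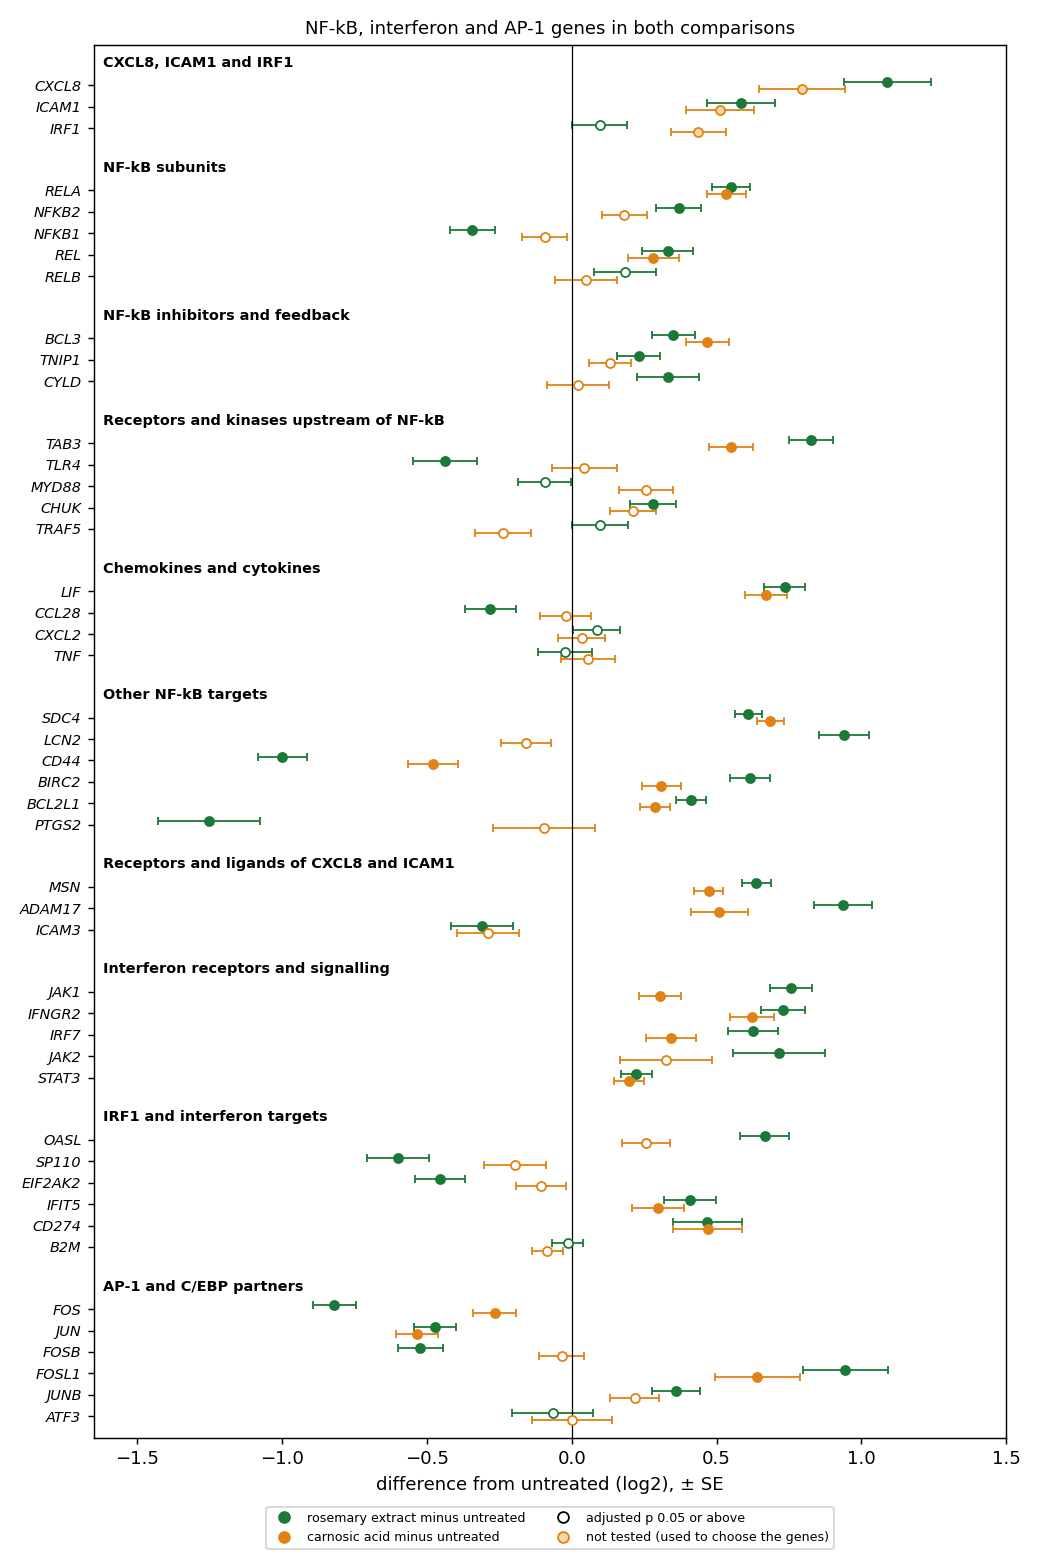
Differences from untreated cells (log2, horizontal axis, with SE) for rosemary extract (green) and carnosic acid (orange), by gene list. Filled points have an adjusted p under 0.05, open points do not, and pale orange points are the carnosic acid values used to choose the genes. RELA, LIF and SDC4 lie to the right for both treatments, and PTGS2 and LCN2 are far from 0 with the extract and near it with carnosic acid.

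Over all these lists, without the 3 chosen genes, 45 of 102 tested genes were called with the extract (33 higher and 12 lower), which is 44.1% beside 38.1% of all genes. With carnosic acid 25 were called (22 higher and 3 lower), 24.5% beside 19% of all genes. By direction, 32.4% were called higher and 11.8% lower with the extract, beside 21.8% and 16.3% of all genes, and 21.6% were called higher and 2.94% lower with carnosic acid, beside 12.9% and 6.12%. The median change was 0.087 with the extract and 0.078 with carnosic acid, beside -0.018 and -0.011 over all genes (log2). These lists were chosen with earlier results known, and the differences between shares were not tested. Between the treatments 19 of 102 were called (18.6%), beside 17.3% of all genes. Only 121 of the 201 listed genes had a named row.

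The genes with the pattern most like each of the 3 were taken from all tested genes by Pearson's correlation over the 9 arrays, as a description. Because the arrays fall into 3 groups, such values rest mainly on the group means. For CXCL8 they were FBXO33, TM4SF1, WAC, PDZD8 and NAB2 (r from 0.987 to 0.993), for ICAM1 CAMK2N1, PRRC1, ESYT2, IST1 and SND1 (0.946 to 0.961), and for IRF1 SMAGP, ARHGAP26, CD9, LIMA1 and TEAD1 (0.895 to 0.925). CXCL8 had the widest range of the 6 genes in its panel. Among the 3 genes themselves r was 0.89 between CXCL8 and ICAM1, 0.65 between ICAM1 and IRF1 and 0.45 between CXCL8 and IRF1.

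**Figure D5:**
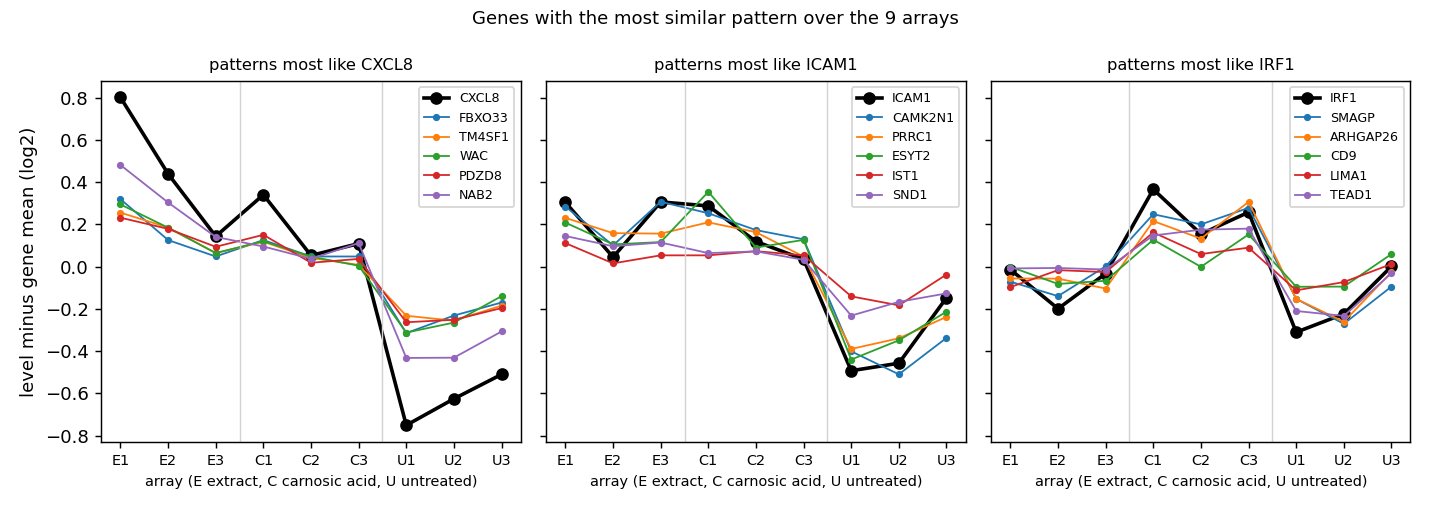
Level minus the gene's own mean (log2, vertical axis) in the 9 arrays (horizontal axis, extract, carnosic acid, untreated) for CXCL8, ICAM1 and IRF1 (black) and the 5 genes most like each (colours). CXCL8 and its 5 genes are low in the untreated arrays, and IRF1 and its 5 genes have their highest group mean with carnosic acid, although for CD9 carnosic acid replicate 2 lies below untreated replicate 3.

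Marker genes of colon epithelium and of other cell types were then read in these cells, which are labelled as a single line. All 8 measured colon epithelial markers were above the dim limit, with a mean level of 8.89 to 9.02 in extract arrays, 9.14 to 9.19 in carnosic acid arrays and 9.13 to 9.20 in untreated arrays (log2). With the extract 1 of the 8 rose and 3 fell, beside 21.8% and 16.3% of all genes. With carnosic acid 2 rose and 3 fell, beside 12.9% and 6.12%. Differences from untreated cells ran from -1.29 to 0.77 with the extract and from -0.35 to 0.88 with carnosic acid (log2). VIL1 was the lowest and KRT20 the highest in both, named after their values were seen. Of 9 measured leukocyte markers 8 lay above the dim limit too, so passing that limit does not tell the cell types apart. The 9 averaged 6.34 to 6.51 with the extract, 6.33 to 6.40 with carnosic acid and 6.33 to 6.36 untreated. LYZ lay far above that mean, at 12.17 with the extract, 12.35 with carnosic acid and 12.43 untreated. Of the 8 tested, 1 was called higher and 1 lower with the extract, beside 21.8% and 16.3% of all genes. With carnosic acid 1 was called higher, beside 12.9%. The median difference over the 8 was -0.097 with the extract and -0.11 with carnosic acid (log2). CD68, a lysosomal protein not limited to macrophages, rose by 1.89 with the extract and 1.24 with carnosic acid (log2, limma adjusted p = 3.29e-08 and 4.20e-06). LYZ fell by 0.26 with the extract in its brighter row (limma adjusted p = 0.000818), which stood at -0.079 with carnosic acid. The dimmer row of LYZ gave -0.73 and -0.41. CD68 and LYZ are named because they passed the test, after their values were seen. CD14 was at 4.29 to 5.05 over the 9 arrays, and PTPRC had no named row here. The 6 measured endothelial markers averaged 5.99 to 6.13 with the extract, 6.04 to 6.22 with carnosic acid and 6.04 to 6.11 untreated, with PECAM1 and KDR below the dim limit. Of the 4 tested, 1 was called higher with each treatment, beside 21.8% of all genes with the extract and 12.9% with carnosic acid. The marker called was ESAM, an endothelial adhesion molecule, named after its values were seen. ESAM averaged 8.81 with the extract, 8.72 with carnosic acid and 8.38 untreated (limma adjusted p = 0.000246 with the extract and 0.00355 with carnosic acid). The 4 measured fibroblast markers averaged 4.50 to 4.64 with the extract, 4.45 to 4.74 with carnosic acid and 4.60 to 4.78 untreated, with DCN and LUM below the dim limit. The part of these markers in the CXCL8, ICAM1 and IRF1 values was not tested. In bulk RNA, more cells making a transcript and more transcript per cell cannot be told apart.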

How the data were processed

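RNA from 9 HT-29 samples was measured on Affymetrix whole-transcript arrays. The authors' deposited values are log2 RMA levels made with the oligo package, per the labels, with no version stated there. RMA gives no detection call. Groups come from the labels.

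The annotation gave 16098 of 53617 rows a single symbol and 0 rows more than 1, and 37519 stayed unnamed here. All 16098 Entrez identifiers matched RefSeq. The brightest row of each of 14884 genes was kept, and the lowest 25% by mean (limit 4.50, log2) were left out, leaving 11163. Limma 3.58.1 in R 4.3.3 was fitted to all 9 arrays by group means without a replicate block, using lmFit and eBayes (variance trend, residual df 6). Every adjusted p is two-sided, from limma, by Benjamini-Hochberg over 11163 genes, called under 0.05. The fit was tested on simulated data.

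The members and lists were chosen with earlier results of these data known. Genes named from each list are up to 5 with the smallest p over the 3 contrasts among called genes, plus a set of well-known pathway genes whatever their values. The 5 genes most like each member leave out uncharacterised loci and small RNAs. The number of arrays limits the precision. Array medians lay between 4.82 and 4.90, 0 pairs of arrays were identical, and arrays of 1 group correlated at 0.991 or above. Alternatives were other scalings, dim filters, row summaries and fits, a replicate block, and leaving out each array.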

Additional observations from a re-analysis of the deposited data

How the results depend on the processing

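Across 19 alternatives CXCL8 and ICAM1 kept their rise with the extract. With 1 array left out it was 0.92 to 1.25 and 0.52 to 0.69 (log2, limma adjusted p at most 0.00106 and 0.0112). With all rows tested the adjusted p was 0.00162 for CXCL8 and 0.0113 for ICAM1. IRF1 stayed uncalled with the extract, at 0.029 to 0.19 with 1 array left out. The carnosic acid differences were 0.71 to 0.86, 0.44 to 0.62 and 0.37 to 0.53 for CXCL8, ICAM1 and IRF1, and none changed sign or moved by more than 1 SD. Between the treatments, IRF1 ran from -0.39 to -0.28 with 1 array left out and was -0.34 with an adjusted p of 0.127 when all rows were tested. CXCL8 ran from 0.12 to 0.45, with a call at 0.45 without extract replicate 3. With a replicate block the adjusted p was 0.000156 for CXCL8 and 0.00237 for ICAM1 with the extract and 0.0249 for IRF1 between the treatments, and no call of the 3 genes changed. Deviations of same-numbered arrays correlated at -0.22 to 0.24 over 9 pairs, and 4 of 9 arrays were closest to an array of their own number. With 3 arrays per group and no culture days named, this cannot settle whether the numbers pair the arrays. Testing all rows called 7230 rows with the extract (4256 genes in the main setting), 14 listed genes with carnosic acid (25) and 8 between the treatments (19), with 53617 rows in the adjustment. Leaving out 1 array gave 1385 to 2124 genes with carnosic acid (2123), lowest without carnosic acid replicate 1. The listed genes called between the treatments then numbered 9 to 20, being 9 when extract replicate 2 was dropped, and 12 or 10 when carnosic acid replicate 2 or 3 was. Of 74 called changes of named list genes, 49 kept the call in all alternatives, 25 lost it in at least 1 and 0 changed sign. Counts of single lists rest on few genes, and 86 of 513 recomputed list counts moved by over 1.5 times. Dim genes cannot be told from background.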

Other observations

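Several listed genes had more than 1 row, and the rows did not always agree. For TNF the 7 brightest rows read the same values. For B2M the dimmer row was at -0.42 with the extract and -0.60 with carnosic acid (log2), against -0.014 and -0.084 in the brighter row. CCL20, a chemokine of mucosal epithelium under the dim limit and so not tested, read 3.72, 3.66 and 3.69 in extract arrays, 3.87, 3.89 and 3.97 in carnosic acid arrays and 3.89, 3.86 and 3.99 in untreated arrays.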
